A study of Mus musculus with 23 samples.

Results

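The genes described are 9 transcription factors that steer CD4+ T helper cell lineages: Tbx21 (T-bet), Eomes, Stat4, Gata3, Rora, Ahr, Maf, Bcl6 and Tox2. They were taken by name, with every probe set (a group of short probes for a transcript) that the array annotation assigns to them alone. This gave 26 of the 45101 probe sets on the array, and the 9 genes are among 18193 genes with a probe set of their own. Where a gene has several probe sets, the brightest on average stands for it. All 9 genes passed the filter on low signal, which asks for 1 group mean above 77.0 intensity units (6.27 on the log2 scale) and which 12516 genes passed. Of the 26 probe sets, 20 passed it.

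Helper cells take up effector programmes under the direction of such factors. T-bet and Eomes are related T-box proteins that drive interferon-gamma production in Th1 and cytotoxic cells, and Stat4 carries the IL-12 signal upstream of T-bet. Gata3 directs Th2 cells, Rora supports the Th17 programme, Ahr is a ligand-activated sensor of dietary and microbial compounds, and Maf promotes IL-10, IL-4 and IL-21. Bcl6 directs follicular helper (Tfh) cells, and Tox2 is expressed with it there. Regulatory T (Treg) cells, which carry Foxp3 and restrain other T cells, can express these helper factors as well, and gut Treg cells are known for Gata3, Maf and Ahr.

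RNA of sorted CD4+ T cells was hybridised to 23 Affymetrix mouse arrays in 9 groups, each array holding RNA pooled from several mice aged 6 to 10 weeks that are labelled male. C57BL/6-Foxp3/GFP reporter mice gave 5 groups of 2 arrays with 4 to 6 mice per array. From the small intestinal lamina propria (LP) these were Foxp3-GFP+ cells (LP Treg) and Foxp3-GFP- cells (LP Tconv), and from peripheral lymph nodes (LN) they were Foxp3-GFP+ cells that were CD103-Klrg1-, CD103+Klrg1- or CD103+Klrg1+. CD103 is an integrin chain encoded by Itgae, and Klrg1 is an inhibitory lectin receptor of experienced lymphocytes. The homeostatic groups, with 2 to 3 mice per array, were the Foxp3-GFP+ (3 arrays) and Foxp3-GFP- (3 arrays) progeny of Foxp3-GFP- CD4+ T cells from BDC2.5 receptor transgenic NOD mice. They had been injected into NOD RAG-/- hosts, which lack T and B cells of their own, and were sorted from spleen and lymph nodes on day 14. The donor mice carry the BDC2.5 receptor transgene, and the labels do not say whether donor cells had other receptors as well.

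The DEC groups came from CD4+CD25- T cells of HA6.5/Thy1.2/RAG-/-/Balb/c mice, of 1 receptor specificity. Their Balb/c recipients received 1 injection of 50 ng DEC-HAPeptide, an antigen aimed at dendritic cells, and CD25+ cells (3 arrays) and CD25- cells (4 arrays) were sorted 3 weeks later, with 5 to 10 mice per array. All sorts kept CD3+CD4+ cells and removed cells with B220, CD8a or CD11b/c. Strain, receptor, host and site differ together between the LP and LN, the homeostatic and the DEC systems, so those factors cannot be told apart. The labels do not say that arrays of a group are independent pools, so every p-value measures the spread between these arrays.

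Foxp3 followed the sorts, at log2 levels of 10.08 to 11.50 in the Treg and CD25+ groups, 4.57 to 4.81 in the 2 Foxp3-GFP- groups and 6.92 to 8.48 in DEC CD25- cells. T cell markers were above the filter in all groups (6 of 6). Array medians ran from 63.7 to 81.1, with DEC CD25- replicates 3 and 4 the dimmest, and replicate 3 had the steepest 3′ to 5′ signal of Gapdh (6.59 on the log2 scale against 1.63 to 3.92 elsewhere). Of the 6 gut epithelium markers, 1 was above the filter in every group, the LP groups included. The 2 LP Tconv arrays correlated at 0.963 over genes, the other LP and LN pairs at 0.985 to 0.991. Xist, looked up after its values were seen, was at 11.85 to 13.25 on the 7 DEC arrays and at 6.47 to 7.67 on all others, although all are labelled male.

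Levels below are log2 intensities, differences are differences of mean log2 levels with their standard error (SE), and a gene is called changed when its limma adjusted p is under 0.05. Over the 9 groups, the levels of 8 of the 9 factors differed (limma F-test, adjusted p from 5.69e-08 for Eomes to 0.00518 for Tbx21), where 46.4% of all tested genes were called. The exception was Gata3, with adjusted p = 0.103. Its group means spanned 1.33 log2 units, the narrowest range of the 9, and those of Eomes spanned 5.02, the widest.

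**Figure D1:**
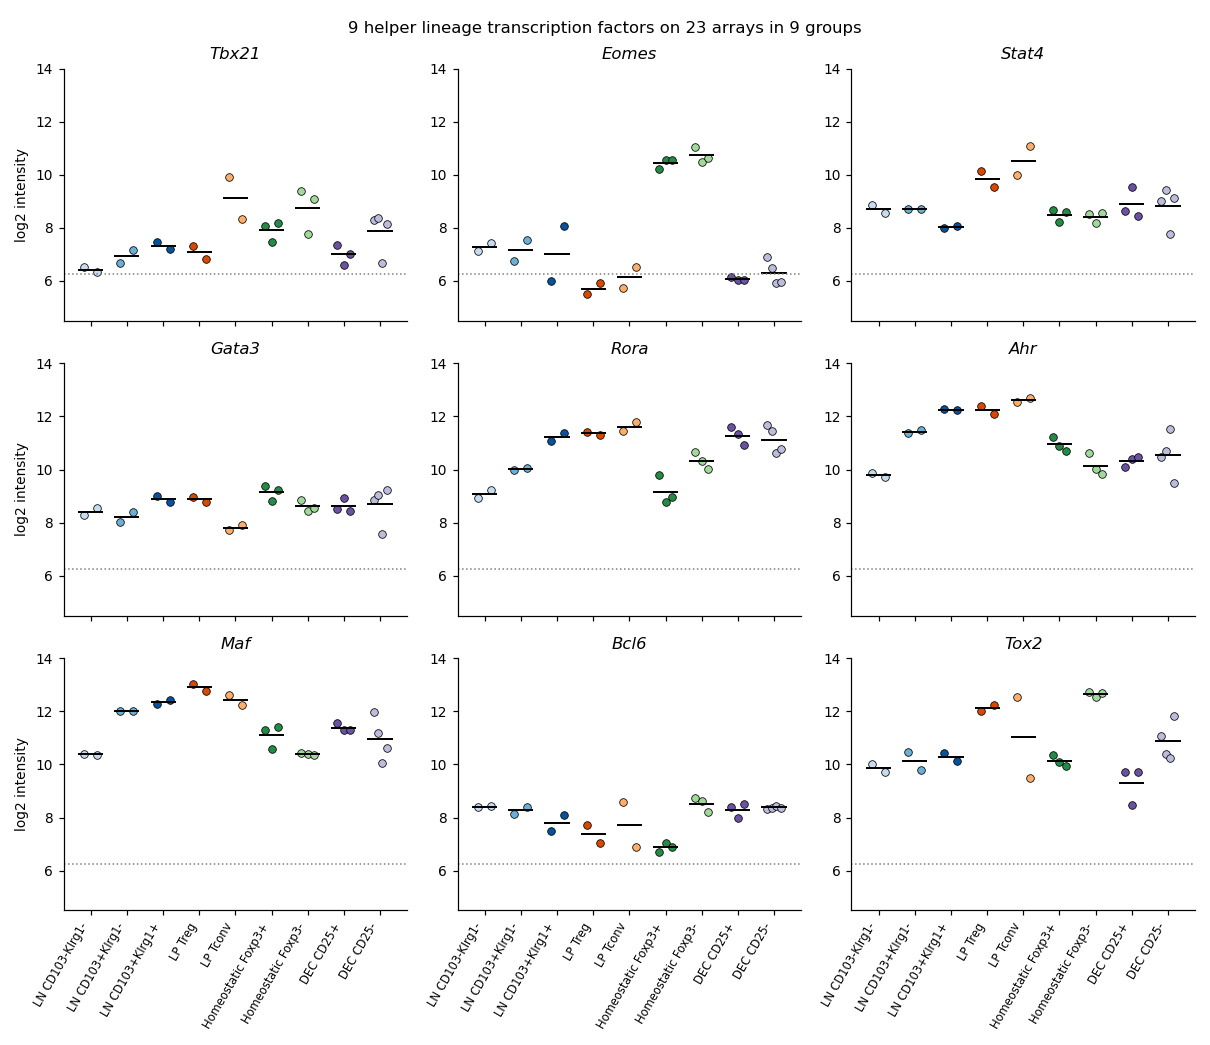
Log2 intensity (y axis) of the 9 factors on each of the 23 arrays (points, by group on the x axis), with group means as bars and the filter of 6.27 as a dotted line. Eomes is high in both homeostatic groups alone, while Rora, Ahr and Maf climb from LN CD103-Klrg1- to LN CD103+Klrg1+ and LP Treg.

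Of the 3 Th1-side factors, Eomes had the most uneven levels of all 9 genes. Its intensities in homeostatic Foxp3+ cells were 1184, 1503 and 1515, and in homeostatic Foxp3- cells they were 2142, 1429 and 1594. The highest of the 17 other arrays, a LN CD103+Klrg1+ array, reached 268. Both homeostatic groups thus lay above every other array and overlapped each other, with group means of 10.44 ± 0.20 (SD, n = 3) in Foxp3+ and 10.73 ± 0.30 (n = 3) in Foxp3- cells and a difference of -0.29 (SE 0.40, limma adjusted p = 1).

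Among the other 7 groups, Eomes means ran from 5.71 ± 0.28 in LP Treg to 7.27 ± 0.23 in LN CD103-Klrg1- cells. The LP groups and DEC CD25+ cells lay under the filter. DEC CD25+ cells had 71.4, 65.5 and 66.3, DEC CD25- cells 121, 89.7, 60.1 and 62.2, and LP Tconv cells 54.0 and 92.4. In the order of means, LP Treg (lowest) did not overlap its upper neighbour DEC CD25+, and LN CD103-Klrg1- did not overlap homeostatic Foxp3+ cells, while all other neighbours overlapped. Intensities in LP Treg cells were 45.6 and 60.2, against 138 and 173 in LN CD103-Klrg1-, 109 and 188 in LN CD103+Klrg1-, and 63.9 and 268 in LN CD103+Klrg1+ cells. The LP Treg arrays were the lower ones in each case without overlap, but none of these differences was called (-1.56, -1.45 and -1.32, SE 0.48 each, limma adjusted p = 0.0836, 0.154 and 0.264). Without the first LN CD103+Klrg1+ array the last of them became -2.36 and was called (adjusted p = 0.00665), and without the second it was -0.29. The second Eomes probe set, 1426001_at, followed the first over the 9 group means (Pearson r = 0.981) in a smaller range of 2.39 log2 units.

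Markers of CD8 T and NK cells, in which Eomes is abundant, had their highest sum in homeostatic Foxp3- cells. In homeostatic Foxp3+ cells the sum of these markers overlapped that of other groups. Their summed intensity (7 markers) was 2398 to 2749 in Foxp3- and 571 to 1534 in Foxp3+ cells, against 398 to 825 in the LP, DEC and other LN groups apart from LN CD103+Klrg1+ (609 to 1771). Klrd1, the highest of them in homeostatic Foxp3- cells, had a mean of 10.87 there and of 8.34 in Foxp3+ cells, against 8.80 in LN CD103+Klrg1+ cells. Klrk1 (7.10 and 6.78 in Foxp3- and Foxp3+ cells), Ncr1 (6.65 and 6.53) and Klre1 (6.70 and 6.03) were higher in both homeostatic groups than in any other group. Prf1 (6.55 and 6.49) was not, with 7.31 in LP Tconv, 6.70 in LP Treg and 6.72 in LN CD103+Klrg1+ cells. Cd8a (7.13 and 7.24) stayed near its 6.83 to 7.11 in LN cells. Cd8b1 was under the filter in both homeostatic groups and at 6.46 to 6.78 in LN cells. Myeloid markers summed to 2144 to 13396 in the homeostatic groups against 734 to 1686 in LP and LN and 752 to 4024 in DEC cells, and erythroid markers to 306 to 2960 against 146 to 247 in all others. The part of these lists in the Eomes signal was not tested. In bulk RNA, fewer cells of a type and less RNA per cell cannot be told apart, here and below.

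Tbx21 was most abundant in LP Tconv cells and least in LN CD103-Klrg1- Treg cells. The 2 LP Tconv arrays read 955 and 319, and the LP Treg arrays 161 and 113, so the groups did not overlap, but the LP Tconv arrays lay far apart. The difference was -2.04 (SE 0.57) and was not called (limma adjusted p = 0.0757). It was called without LP Tconv replicate 2 (-2.83, adjusted p = 0.0284), and without replicate 1 it was -1.24 (adjusted p = 0.348). Leaving the dim DEC CD25- arrays out of the pooled spread gave adjusted p = 0.0212 at the same difference.

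In the homeostatic groups, Tbx21 intensities were 269, 179 and 292 in Foxp3+ and 675, 220 and 538 in Foxp3- cells, which overlapped (-0.83, SE 0.47, limma adjusted p = 0.877). DEC CD25+ arrays had 165, 97.8 and 131 and DEC CD25- arrays 315, 329, 104 and 284, with the low value on replicate 3 (-0.87, SE 0.44, adjusted p = 0.357). In lymph nodes the values were 91.1 and 81.5 in CD103-Klrg1-, 102 and 145 in CD103+Klrg1-, and 177 and 146 in CD103+Klrg1+ Treg cells. The 3 subsets did not overlap, yet the step from the first to the last, 0.90 (SE 0.57, adjusted p = 1), was within the pooled spread. Thus in all 3 partner comparisons the Treg or CD25+ cells had the lower mean of Tbx21, and in none was it called. From lowest to highest, the group means were 6.43 ± 0.11 (SD, n = 2) in LN CD103-Klrg1-, 6.92 ± 0.36 in LN CD103+Klrg1-, 7.00 ± 0.38 in DEC CD25+, 7.07 ± 0.36 in LP Treg, 7.33 ± 0.20 in LN CD103+Klrg1+, 7.88 ± 0.79 in DEC CD25-, 7.92 ± 0.38 in homeostatic Foxp3+, 8.75 ± 0.86 in homeostatic Foxp3- and 9.11 ± 1.12 in LP Tconv cells. Apart from the lowest and its neighbour, adjacent groups overlapped.

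Stat4 was highest in the gut, with intensities of 1135 and 751 in LP Treg and 1008 and 2148 in LP Tconv cells, which overlapped (-0.67, SE 0.45, limma adjusted p = 0.894). LN CD103+Klrg1+ Treg cells had the lowest, 255 and 270. LP Treg cells exceeded them by 1.82 (SE 0.45, adjusted p = 0.0409, 3.52-fold), the only member called between these groups. This call was lost without any 1 of the 4 arrays (adjusted p from 0.0739 to 0.486) and with no filter on low values (0.0516). Against LN CD103-Klrg1- and CD103+Klrg1- cells, at 467 and 380 and at 424 and 422, the LP Treg excess was 1.13 in both cases (SE 0.45, adjusted p = 0.214 and 0.265). Homeostatic and DEC groups lay between 8.42 and 8.88 and differed from their partners by 0.07 (SE 0.37) and 0.05 (SE 0.34), the latter turning negative under quantile (-0.23) and loess (-0.22) scaling. In the order of means, the lowest, LN CD103+Klrg1+ (8.03 ± 0.06), did not overlap its neighbour, nor did LP Treg (9.85 ± 0.42) overlap the group below it, and all other neighbours overlapped up to LP Tconv (10.52 ± 0.77).

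Gata3, the Th2 factor, was measured by 1 probe set. Its intensities were 506 and 445 in LP Treg and 210 and 240 in LP Tconv cells, the lowest of all groups. The groups did not overlap, and the difference of 1.08 (SE 0.38, 2.11-fold) was not called (limma adjusted p = 0.233). With both dim DEC CD25- arrays left out, which narrows the pooled spread, the adjusted p was 0.00817. Among the other comparisons of 2 groups that were tested, the largest Gata3 differences were both 0.68 (SE 0.38), LN CD103+Klrg1+ and LP Treg over LN CD103+Klrg1- cells. Homeostatic Foxp3+ cells had 675, 449 and 598 against 468, 350 and 374 (0.52, SE 0.31, adjusted p = 0.955), and LN CD103+Klrg1+ cells 517 and 440 against 311 and 376 in CD103-Klrg1- cells (0.48, SE 0.38, adjusted p = 1). The DEC difference was -0.06 (SE 0.29). From LN CD103+Klrg1- upwards, each of the other groups overlapped the next in the order of levels. That order ran through LN CD103-Klrg1- (8.42 ± 0.19), homeostatic Foxp3- (8.62 ± 0.22), DEC CD25+ (8.63 ± 0.28), DEC CD25- (8.69 ± 0.76), LP Treg (8.89 ± 0.13), LN CD103+Klrg1+ (8.90 ± 0.17) and homeostatic Foxp3+ cells (9.14 ± 0.30).

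Rora, Ahr and Maf formed the clearest pattern, in the LN Treg subsets and LP Treg cells. All 3 were lowest in LN CD103-Klrg1- cells among the 4 Treg groups of the reporter mice, intermediate in CD103+Klrg1- cells and high in CD103+Klrg1+ and LP Treg cells. They were the 3 of 9 members called in LN CD103+Klrg1+ against CD103-Klrg1- cells, all higher, where 2.1% of all genes were called, and again the 3 of 9 called, all higher, in LP Treg against LN CD103-Klrg1- cells, where 4.55% were called. These comparisons share the LN CD103-Klrg1- arrays.

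Rora intensities were 488 and 606 in CD103-Klrg1-, 1006 and 1070 in CD103+Klrg1-, 2145 and 2651 in CD103+Klrg1+ LN Treg cells, and 2735 and 2527 in LP Treg cells. The LN subsets did not overlap, and LP Treg overlapped the last of them. CD103+Klrg1+ exceeded CD103-Klrg1- cells by 2.13 (SE 0.36, limma adjusted p = 0.00168, 4.39-fold). LP Treg exceeded CD103-Klrg1- cells by 2.27 (SE 0.36, adjusted p = 0.00074) and CD103+Klrg1- cells by 1.34 (SE 0.36, adjusted p = 0.0547), and differed from CD103+Klrg1+ cells by 0.14 (SE 0.36). Of the separate steps in the lymph node, the first was 0.93 (SE 0.36, adjusted p = 1) and the second 1.20 (SE 0.36, adjusted p = 0.25), neither called.

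Ahr rose over the same groups. Its intensities were 933 and 850 in CD103-Klrg1-, 2688 and 2849 in CD103+Klrg1-, 5015 and 4796 in CD103+Klrg1+, and 5345 and 4342 in LP Treg cells. CD103+Klrg1+ exceeded CD103-Klrg1- cells by 2.46 (SE 0.41, limma adjusted p = 0.0017, 5.51-fold) and LP Treg exceeded them by 2.44 (SE 0.41, adjusted p = 0.00141). The first step, to CD103+Klrg1-, was 1.64 (SE 0.41) and was not called (adjusted p = 0.24), like the second of 0.83 (SE 0.41, adjusted p = 1). LP Treg and CD103+Klrg1+ LN cells were level at -0.03 (SE 0.41).

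Maf intensities were 1351 and 1308 in CD103-Klrg1-, 4138 and 4110 in CD103+Klrg1-, 4959 and 5561 in CD103+Klrg1+, and 8446 and 7027 in LP Treg cells, with no overlap between any of them. CD103+Klrg1+ exceeded CD103-Klrg1- cells by 1.98 (SE 0.40, limma adjusted p = 0.00899, 3.95-fold). LP Treg exceeded CD103-Klrg1- cells by 2.53 (SE 0.40, adjusted p = 0.00082, 5.79-fold), CD103+Klrg1- cells by 0.90 (SE 0.40, adjusted p = 0.338) and CD103+Klrg1+ cells by 0.55 (SE 0.40, adjusted p = 0.735). The first lymph node step was 1.63 (SE 0.40, adjusted p = 0.213), larger than the second of 0.35 (SE 0.40). The LN call of Maf was lost without any 1 of the 4 arrays, with adjusted p from 0.0705 to 0.0953, while those of Rora and Ahr held in each case.

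**Figure D2:**
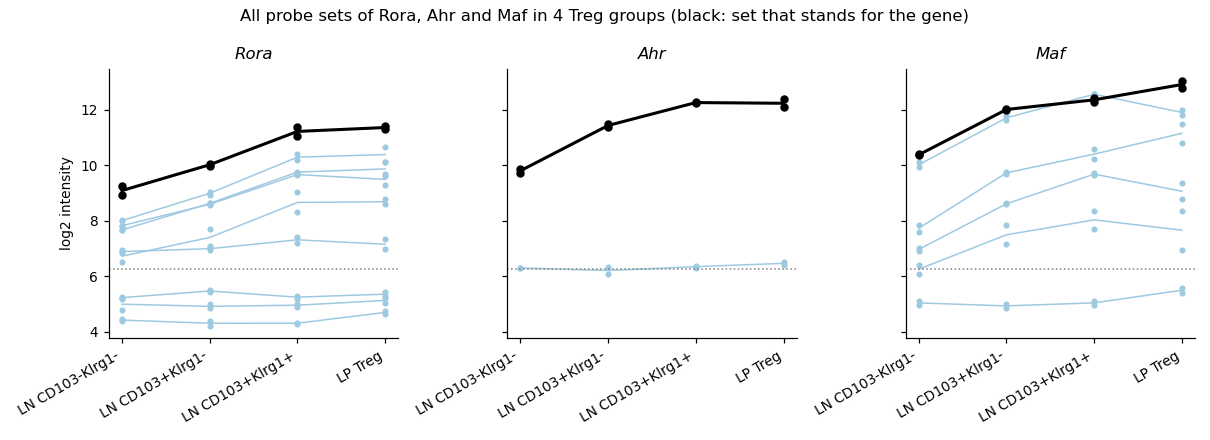
Log2 intensity (y axis) of every probe set of Rora (9), Ahr (2) and Maf (6) in the 3 LN Treg subsets and LP Treg cells (x axis), with points for the 2 arrays and lines through group means. The Rora and Maf sets above the filter (dotted line at 6.27) rise over the LN subsets, and from LN CD103+Klrg1+ to LP Treg cells 3 of 5 Maf and 2 of 6 Rora sets fall, while the second Ahr set stays near 6.27 throughout. Black lines are the sets that stand for the genes.

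Other probe sets of the same genes were set beside these. For Rora, 6 of 9 sets passed the filter and all 6 were higher in CD103+Klrg1+ than in CD103-Klrg1- LN Treg cells, by 0.42 to 2.29, with 4 called in a fit over all 21612 probe sets that passed. For Maf, 5 of 6 passed and all 5 were higher, by 1.78 to 2.71, with 3 called. In LP Treg against LN CD103-Klrg1- cells, 5 of 6 Rora and 3 of 5 Maf sets were called higher. Between LP Treg and LN CD103+Klrg1+ cells the sets differed in direction: Maf was higher in LP Treg cells by 2 of 5 sets and lower by 3 (-0.66 to 0.75), and Rora higher by 4 of 6 and lower by 2 (-0.17 to 0.14), with 0 called. Ahr had a second set, 1450695_at, with group means between 6.14 and 6.49, near the filter. It differed by 0.05 (SE 0.17) between the LN subsets and by 0.17 (SE 0.17) between LP Treg and LN CD103-Klrg1- cells, so the Ahr result rests on 1 set, 1422631_at.

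Markers of other cells moved in the LN groups too. The summed intensity of 7 B cell markers was 1583 to 1704 in CD103-Klrg1-, 1048 to 1650 in CD103+Klrg1- and 2043 to 3448 in CD103+Klrg1+ cells, and 617 to 679 in LP Treg cells. The 8 myeloid markers summed to 801 to 1059, 816 to 838 and 734 to 1686 in the LN subsets and 946 to 1083 in LP Treg cells, with Itgam and Itgax under the filter in all 4 groups. Markers of CD8 T and NK cells summed to 586 to 760, 606 to 653 and 609 to 1771 in the LN subsets and 419 to 486 in LP Treg cells. Those of mast and innate lymphoid cells, some of which use Gata3, Rora and Ahr, summed to 398 to 403, 496 to 505 and 601 to 978 in the LN subsets and 568 to 770 in LP Treg cells. Among these 4 groups, summed B cell markers were highest in CD103+Klrg1+ and lowest in LP Treg cells, and Rora, Ahr and Maf were high in both. The summed mast and innate lymphoid list was higher in both of these groups than in CD103-Klrg1- cells. Of its 6 markers, Il17rb carried this (means of 6.81, 7.80, 8.95 and 8.57 in the LN subsets and LP Treg cells), while Kit was at 6.61, 6.69, 6.27 and 6.28 and Fcer1a, Ms4a2 and Hpgds were under the filter in all 4 groups. The part of these lists in the differences was not tested.

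Outside these groups the 3 factors parted. LP Tconv cells had the highest mean Rora (2775 and 3532) and Ahr (5905 and 6560) of all 9 groups, and LP Treg cells the highest Maf, by the sets that stand for the genes. Of the Rora sets above the filter, 4 of 6 were highest in LP Tconv and 1455165_at and 1458129_at in DEC CD25+ cells (1455165_at at 11.07 there and 10.17 in LP Tconv cells). Of the Maf sets, 2 of 5 were highest in LP Treg and 3 in LN CD103+Klrg1+ cells. For the sets that stand for the genes, LP Treg and LP Tconv arrays did not overlap. Their differences of -0.25 (SE 0.36) for Rora, -0.37 (SE 0.41) for Ahr and 0.50 (SE 0.40, LP Tconv at 6224 and 4798) for Maf were all within the pooled spread (limma adjusted p = 1, 1 and 0.995). Some other sets did overlap between these groups, among them Rora 1436325_at, Maf 1435828_at and Ahr 1450695_at. Others, such as Rora 1455165_at and Maf 1444073_at, did not. In the DEC system Rora was high in both groups, at 3085, 2584 and 1926 in CD25+ and 3255, 2785, 1563 and 1746 in CD25- cells, whereas Ahr was at 1085, 1343 and 1434 in CD25+ cells. On the DEC CD25- arrays Ahr ran from 728 to 2944 and Maf from 1058 to 4029, spreads that cover the CD25+ arrays of Ahr and of Maf (2987, 2545 and 2540).

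Homeostatic Foxp3+ cells had less Rora than their Foxp3- partners, with 883, 436 and 501 against 1605, 1268 and 1038. The difference of -1.15 (SE 0.29, 2.22-fold lower) narrowly missed the threshold (limma adjusted p = 0.0523). Rora was called with quantile or loess scaling, array weights, only the arrays compared, without the dim DEC CD25- arrays or without Foxp3+ replicate 1. It was not called with no filter, with averaged probe sets or with any other single array of the pair left out. The array numbers pair the homeostatic samples by their shared deviations, a pairing read from these same arrays. The replicate block took the array numbers of all systems in 1 fit, LP and LN included, so its smaller SE does not come from the homeostatic pairs alone. With this block Rora was called (SE 0.16, limma adjusted p = 0.00273). Ahr went the other way, at 2420, 1915 and 1659 in Foxp3+ against 1559, 1035 and 904 in Foxp3- cells, without overlap (0.80, SE 0.34, adjusted p = 0.495), and it too was called with the replicate block (SE 0.16, adjusted p = 0.0178). Maf read 2542, 1548 and 2691 against 1375, 1349 and 1301 (0.71, SE 0.33, adjusted p = 0.624, and 0.24 with the block). Ahr was thus the lower of the pair in LP Treg and the higher in homeostatic Foxp3+ cells, each without overlap, and the test of that difference gave -1.17 (SE 0.53, adjusted p = 0.832, and 0.0436 with the block). Over all 9 groups, Rora was lowest in LN CD103-Klrg1- (9.09 ± 0.22) and homeostatic Foxp3+ cells (9.17 ± 0.54), which overlapped each other and not the next group. For Maf and Ahr the lowest 5 groups overlapped one after another, LN CD103-Klrg1- lowest in both (10.38 ± 0.03 and 9.80 ± 0.09), and the other LN and the LP groups had the higher means.

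Bcl6 and Tox2, the Tfh-side factors, were the 2 of 9 members called in the homeostatic comparison, both lower in Foxp3+ cells, where 1.76% of all genes were called. Bcl6 intensities were 104, 132 and 118 in Foxp3+ and 425, 391 and 295 in Foxp3- cells, a difference of -1.64 (SE 0.31, limma adjusted p = 0.00574, 3.12-fold lower) that held without each array in turn. Tox2 read 1323, 1079 and 982 in Foxp3+ and 6814, 5914 and 6623 in Foxp3- cells, the highest of all groups. Its difference was -2.52 (SE 0.55, adjusted p = 0.0193, 5.75-fold lower). The arrays did not overlap for either gene, but the Tox2 call was lost without any 1 of the 6 arrays (adjusted p from 0.0544 to 0.098) at differences of -2.43 to -2.64.

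The second probe set of each gene, 1450381_a_at for Bcl6 and 1457757_at for Tox2, was under the filter in all groups and differed by -0.02 (SE 0.14) and 0.24 (SE 0.18). The Tox2 set 1440156_s_at carries the array's mark for probes that can match more than 1 transcript. The homeostatic partners also differed in the summed CD8 T and NK markers given above for Eomes, which were higher in Foxp3- cells. By means, Klrd1 (10.87 against 8.34), Klre1, Klrk1, Ncr1 and Prf1 were higher in Foxp3- cells. Cd8a (7.13 against 7.24) and Cd8b1 (6.02 against 6.10) were slightly lower there. Summed myeloid markers overlapped, at 3969 to 13396 in Foxp3- and 2144 to 8341 in Foxp3+ cells, as did erythroid markers (557 to 2960 and 306 to 1820). The part of these lists in the Bcl6 and Tox2 results was not tested.

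Both genes have promoter windows in the RefSeq table (build GRCm38.p6), as do 7 of the 9 factors with 13 windows in all. Maf and Ahr have none there. The stretches of these 2 factors that fell together are shown up to the edge of the annotated gene, in lower case with motif matches in capitals. The Bcl6 stretch lies on the minus strand at chr16:23988867-23989102 and also lies within the annotated span of the long noncoding RNA gene Gm31527, and the Tox2 stretch lies on the plus strand at chr2:163202877-163203057. The capitals mark a STAT-type motif, TTCNNNGAA, in Bcl6 and the core of the AHR site, GCGTG, in Tox2.
Bcl6: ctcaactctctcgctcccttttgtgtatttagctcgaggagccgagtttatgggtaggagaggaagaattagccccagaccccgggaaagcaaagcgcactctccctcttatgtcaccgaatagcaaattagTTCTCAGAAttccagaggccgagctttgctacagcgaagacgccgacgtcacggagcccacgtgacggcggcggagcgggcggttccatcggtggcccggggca
Tox2: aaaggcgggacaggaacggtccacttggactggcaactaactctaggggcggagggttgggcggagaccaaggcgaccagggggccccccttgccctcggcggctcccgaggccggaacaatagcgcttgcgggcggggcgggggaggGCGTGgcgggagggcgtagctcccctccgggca

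Motifs were searched on both strands of the 250 bases before each start. The AHR core was in 28.2% of all 32851 windows, among them 1 Tox2 window (from base -102) and the Rora window (from base -167, minus strand). TTCNNNGAA was in 7.0% of windows and in both Bcl6 windows. The window inside the Bcl6 gene held it 3 times, once within a match to TTCCTNGAA (the BCL6-type motif, which the STAT motif can overlap), present in 1.3% of windows. A ROR half-site, AGGTCA (14.0%), occurred in 1 Stat4 window, and a MAF half-site, TGCTGA (16.1%), in the Gata3 window. The T-box motif AGGTGTGA (1.1%) and the GATA motif AGATAA (10.0%) were in none of the 13. These matches describe letters and not bound sites.

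In the gut, both genes differed most between the 2 LP Tconv arrays themselves. LP Tconv replicate 1 had 5939 for Tox2 and 383 for Bcl6, and replicate 2 had 726 and 119. LP Treg arrays read 4154 and 4801 for Tox2 and 209 and 132 for Bcl6. The Tox2 difference was 1.11 (SE 0.67, limma adjusted p = 0.834) with both arrays, 2.62 without replicate 1 (called, adjusted p = 0.0102) and -0.41 without replicate 2. The Bcl6 difference was -0.36 (SE 0.38, adjusted p = 1) with both arrays, 0.48 without replicate 1 and -1.20 without replicate 2 (adjusted p = 0.0572). The same arrays also stood apart in Tbx21, highest on replicate 1, and in Stat4, highest on replicate 2. Their 3′ to 5′ signal of Gapdh was 3.17 on replicate 1 and 1.63 on replicate 2, the lowest of all arrays. Its part in these differences was not tested.

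Tox2 was 4.78-fold higher in LP Treg than in LN CD103-Klrg1- cells, which read 1044 and 838 (2.26, SE 0.67), and 1.99 and 1.85 higher in log2 terms than in CD103+Klrg1- (1428 and 882) and CD103+Klrg1+ cells (1384 and 1115). The LP Treg arrays lay above all 6 LN arrays, and none of the differences was called (limma adjusted p = 0.0688, 0.161 and 0.26). Bcl6 was 334 and 343, 284 and 338, and 180 and 275 in those 3 LN subsets, and lower in LP Treg cells by 1.03, 0.90 and 0.42 log2 units (SE 0.38 each, adjusted p = 0.163, 0.295 and 0.802). In the DEC groups Tox2 read 831, 357 and 831 in CD25+ and 2159, 1362, 1220 and 3644 in CD25- cells. This was the only member without overlap there (-1.60, SE 0.51, adjusted p = 0.196), while Bcl6 arrays overlapped (340, 255 and 361 against 323 to 347). The median of all genes was 0.16 higher in CD25+ cells in the DEC comparison, and -0.03 after quantile scaling of the arrays. In the order of Bcl6 means, from homeostatic Foxp3+ (6.88 ± 0.18) to homeostatic Foxp3- (8.52 ± 0.27), the only neighbours without overlap were LN CD103+Klrg1+ (7.80 ± 0.43) and LN CD103+Klrg1- (8.27 ± 0.18). For Tox2, DEC CD25+ cells (9.29 ± 0.70) at the bottom and homeostatic Foxp3- cells (12.65 ± 0.11) at the top did not overlap their neighbours, and the 2 LP Tconv arrays (mean 11.02 ± 2.14) spanned most of the groups.

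**Figure D3:**
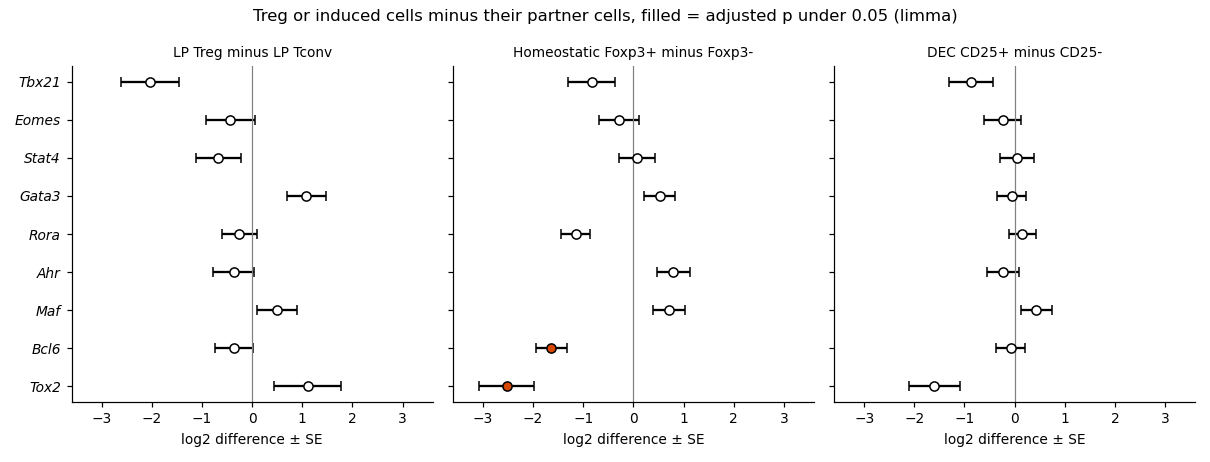
Differences in mean log2 intensity (x axis, with SE as bars) of the 9 factors (y axis) for LP Treg minus LP Tconv, homeostatic Foxp3+ minus Foxp3- and DEC CD25+ minus CD25-. Only Bcl6 (-1.64) and Tox2 (-2.52) in the homeostatic comparison are filled, meaning called.

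Counted by comparison, 0 of 9 members were called between LP Treg and LP Tconv, where 2.7% of genes were called (limma, 2 members and 1090 of 12516 genes at unadjusted p under 0.05). The count was also 0 of 9 between DEC CD25+ and CD25- cells, where 0.495% were called (1 member and 1852 genes at unadjusted p under 0.05). In lymph nodes it was 0 of 9 from CD103-Klrg1- to CD103+Klrg1- cells (0.0959% of genes called, 3 members and 255 genes at unadjusted p under 0.05) and 0 of 9 from there to CD103+Klrg1+ cells (0.647%, 1 member and 479 genes at unadjusted p under 0.05). LP Treg against LN CD103+Klrg1- cells gave 0 of 9 (2.63%, 6 members and 1642 genes at unadjusted p under 0.05) and against CD103+Klrg1+ cells 1 of 9, Stat4 (2.05%). Against background shares this small, a count of 0 among 9 genes says little about the members.

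Arrays of the 2 groups did not overlap for 5 members between LP Treg and LP Tconv (30.9% of all genes), 5 in the homeostatic pair (22.3%) and 1 in the DEC pair (5.46%). Among the LN steps the count was 4 for CD103+Klrg1- against CD103-Klrg1- (29.7%), 7 for CD103+Klrg1+ against CD103+Klrg1- (31%) and 8 for CD103+Klrg1+ against CD103-Klrg1- (36.8%). LP Treg cells were apart from the LN CD103-Klrg1- subset for 9 members (53.2%), from CD103+Klrg1- for 8 (56.8%) and from CD103+Klrg1+ for 4 (49.5%). The median member difference was 1.13 for LP Treg against LN CD103-Klrg1- cells, beside 0.05 over all genes, and 0.48 for LN CD103+Klrg1+ against CD103-Klrg1- cells, beside -0.01.

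**Figure D4:**
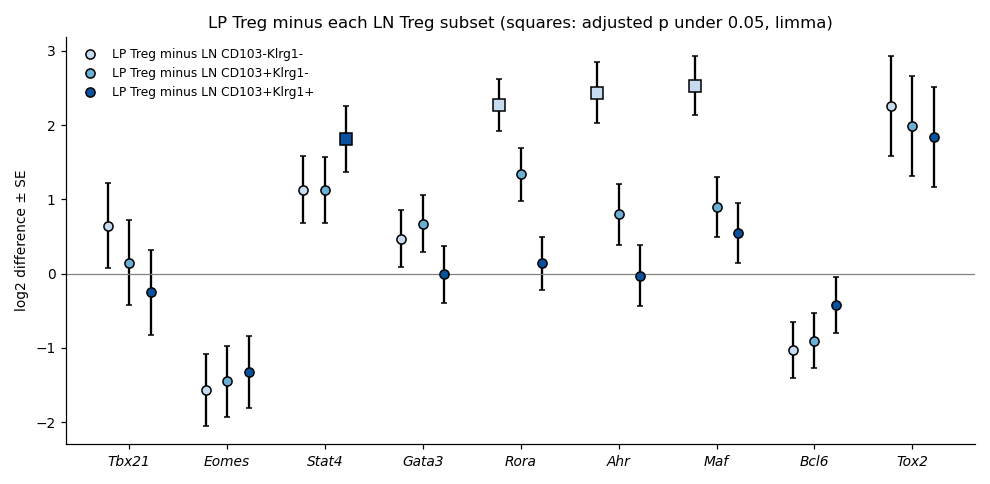
Differences in mean log2 intensity (y axis, with SE as bars) of the 9 factors (x axis) for LP Treg cells minus each of the 3 LN Treg subsets, which share the LP Treg arrays. Rora, Ahr and Maf fall from 2.27 to 2.53 against CD103-Klrg1- cells to between -0.03 and 0.55 against CD103+Klrg1+ cells, while Tox2 stays at 1.85 to 2.26 against all 3.

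Whether a Treg-partner difference varied between systems was tested as a difference of differences. No member was called between LP and homeostatic cells (0 of 9, 0.775% of genes), LP and DEC cells (0 of 9, 1.01%) or homeostatic and DEC cells (0 of 9, 0.336%), with 3, 2 and 3 members and 690, 1189 and 1053 of 12516 genes at unadjusted p under 0.05. Tox2 came nearest, at 3.63 (SE 0.87, limma adjusted p = 0.0632) between LP and homeostatic cells. The replicate block made it a call (adjusted p = 0.0321), as did the fit without LP Tconv replicate 1 (5.15, adjusted p = 0.000706), and it was 2.11 without LP Tconv replicate 2 (adjusted p = 0.292). With the block, Bcl6 (-1.56, adjusted p = 0.0359), Rora (-1.19, adjusted p = 0.0352) and Ahr (1.38, adjusted p = 0.0216) were called between homeostatic and DEC cells, a fit in which the unpaired DEC CD25- replicate 4 has no weight.

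Other genes of the helper programmes were read from lists, with the number tested in each. Of the Th1 list (12 genes tested), 7 were lower and 0 higher in LP Treg than in LP Tconv cells, among them Ifng, the Th1 cytokine (-2.87, SE 0.41, limma adjusted p = 0.000352), Fasl (-3.65, SE 0.50), and the IL-18 receptor chains Il18r1 (-2.28, SE 0.27) and Il18rap (-2.14, SE 0.30). The median of the list was -1.73, beside -0.01 over all genes. Against LN CD103-Klrg1- cells, LP Treg had 5 of the 12 higher and 1 lower. Among the higher were Il12rb1, an IL-12 receptor chain, at 2.16 (SE 0.26, limma adjusted p = 5.08e-05), Ifng at 2.24 and Cxcr3 at 2.17 (SE 0.41 each). LN CD103+Klrg1+ had 2 of 12 higher than CD103-Klrg1- cells, Il18r1 (1.60, SE 0.27) and Cxcr3 (1.88, SE 0.41). In the homeostatic pair 1 of 12 was called, Ccl5 (-2.34, SE 0.49, adjusted p = 0.014), and in the DEC pair 0 of 12. Some of these calls were lost without 1 array: Cxcr3 in LN CD103+Klrg1+ cells without either array of that group or CD103-Klrg1- replicate 2, Cxcr3 in LP Treg cells without LP Treg replicate 1 or LN CD103-Klrg1- replicate 2, Ifng in LP Treg against LN cells without the latter (adjusted p = 0.0505), and Ccl5 without Foxp3+ replicate 1 or Foxp3- replicate 1 or 3 (largest adjusted p = 0.0831).

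Of the Th2 list (9 tested), the chemokine receptors Ccr4 (1.75, SE 0.23, limma adjusted p = 0.000118) and Ccr8 (1.87, SE 0.31, adjusted p = 0.00121) were higher in LP Treg than in LP Tconv cells and Il4 was lower (-1.01, SE 0.22, adjusted p = 0.0129), with Il4 under the filter in LP Treg and Ccr8 in LP Tconv cells. Il4 was also lower in homeostatic Foxp3+ cells (-0.81, SE 0.18), the 1 of 9 called there. Of the Th17 list (10 tested), 5 were lower and 0 higher in LP Treg than in LP Tconv cells, led by Il17a (-4.25, SE 0.33, adjusted p = 2.47e-07) and Il17re (-1.17, SE 0.19), although Rora and Ahr were near level between them. In homeostatic Foxp3+ cells 3 of these 10 were lower: Tmem176b (-1.57, SE 0.34), Tmem176a (-1.18, SE 0.29) and the IL-1 receptor Il1r1 (-0.69, SE 0.16). Il1r1 was higher in LP Treg than in each LN subset (0.81, 0.96 and 1.20 when ordered by size, SE 0.19 each), the 1 of 10 called in each. The homeostatic calls of Il4, Tmem176b, Tmem176a and Il1r1 were each lost without Foxp3+ replicate 1 or 3 or Foxp3- replicate 1 or 2, and the LP call of Il4 without any array but LP Tconv replicate 1. That of Il1r1 in LP Treg cells held against CD103-Klrg1- cells only, being lost against both other subsets without LP Treg replicate 1 or either array of the subset, and against CD103+Klrg1+ cells without any of the 4.

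Of the Tfh list (13 tested), Pou2af1 (-2.30, SE 0.40, limma adjusted p = 0.0036) and Pdcd1 (PD-1; -2.28, SE 0.43, adjusted p = 0.00649) were lower in homeostatic Foxp3+ cells, as were Bcl6 and Tox2, and none was higher. Both were under the filter in Foxp3+ cells. In LP Treg cells, Il21 was lower than in LP Tconv cells (-4.99, SE 0.70, adjusted p = 0.000263), the 1 of 13 called. Against LN CD103-Klrg1- cells, 3 of 13 were lower in LP Treg cells: Pou2af1 (-3.17, SE 0.49), Il6ra (-2.63, SE 0.47) and Lef1 (-1.58, SE 0.40). The last was lost without any 1 of the 4 arrays (largest adjusted p = 0.294), and Il6ra without LP Treg replicate 1 or LN CD103-Klrg1- replicate 2 (largest 0.0546). Pou2af1 is also a B cell coactivator, and the summed B cell markers were higher in LN than in LP Treg cells. Of these markers, Pax5 went the other way, at 6.56 in LP Treg and 6.39 to 6.47 in LN cells. The part of B cells in the Pou2af1 difference was not tested.

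Of 5 tested genes of the Ahr pathway, 0 were called in any of the comparisons between LN subsets, with list medians of 0.04, 0.13 and 0.11. In LP Treg cells, at the same Ahr level as LN CD103+Klrg1+ cells, the target Ahrr, a repressor of the receptor, was higher by 3.41 (SE 0.39, limma adjusted p = 4.53e-05) and Tiparp by 1.68 (SE 0.41, adjusted p = 0.0403). Ahrr was under the filter in all 3 LN subsets (means 4.79, 5.21 and 5.37) and at 8.77 in LP Treg cells, so the size of its difference rests on dim LN signals and is not a bound. Against LN CD103-Klrg1- cells the differences were 3.99 for Ahrr and 2.19 for Tiparp. The Tiparp calls were lost without LP Treg replicate 1 and without either LN CD103+Klrg1+ array (largest adjusted p = 0.585) or LN CD103-Klrg1- replicate 2, and the Ahrr calls held without each array. Cyp1b1, another target, was lower in LP Treg than in LP Tconv cells by 1.33 log2 units (SE 0.22, adjusted p = 0.0017).

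Among cytokines linked to Maf (3 tested), Il10 exceeded LN CD103-Klrg1- by 3.01 (SE 0.50, limma adjusted p = 0.00163) in LN CD103+Klrg1+ cells and by 6.92 (SE 0.50, adjusted p = 1.85e-07) in LP Treg cells. It was also higher in LP Treg than in LP Tconv cells by 3.98 (SE 0.50, adjusted p = 7.95e-05), where Maf was not called and the other genes of the list, Il21 (-4.99) and Il4 (-1.01), were lower. It was also higher in DEC CD25+ than in CD25- cells by 1.83 (SE 0.38, adjusted p = 0.0389), a call kept in 6 of 15 alternative settings and lost without any 1 CD25+ array or CD25- replicate 3 or 4. The LN call of Il10 was lost without CD103-Klrg1- replicate 2 (adjusted p = 0.0643). Of 16 tested partner and rival factors, LN CD103+Klrg1+ cells had 2 higher than CD103-Klrg1- cells, Prdm1 (Blimp-1; 3.13, SE 0.41) and Id2 (2.72, SE 0.38), and 2 lower, Bach2 (-2.05, SE 0.50) and Id3 (-2.23, SE 0.56). The calls of Bach2 and Id3 were lost without most single arrays (largest adjusted p = 0.726 and 0.397), those of Prdm1 and Id2 in none of these cases. In LP Treg cells Nfil3 was higher than in LP Tconv cells (2.20, SE 0.45, lost without LP Treg replicate 1 or LP Tconv replicate 2). It was also higher there than in each LN subset (1.85, 2.34 and 3.61 when ordered by size, SE 0.45 each). The calls of the 2 smaller differences were lost without LP Treg replicate 1 or either array of the subset. Prdm1 was higher in homeostatic Foxp3+ than in Foxp3- cells (1.59, SE 0.34, limma adjusted p = 0.0156), and Id2 was lower (-1.72, SE 0.31). The Prdm1 call was lost without Foxp3+ replicate 1 or 3 or Foxp3- replicate 2 or 3 (largest adjusted p = 0.12). Prdm1 can repress Bcl6, which was lower in homeostatic Foxp3+ cells. In LN CD103+Klrg1+ against CD103-Klrg1- cells, where Prdm1 was higher by 3.13, Bcl6 differed by -0.60 (SE 0.38) and was not called. A link between these genes was not tested.

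Likeness of pattern was described by Pearson's r over the 9 group means, among 6313 genes whose means spanned at least 1 log2 unit. The points share arrays, pools and scaling. Maf and Ahr were each among the other's nearest genes (r = 0.934), beside Rnase4 (0.945) and Gde1 (0.927) for Maf and Ang (0.926) and Adam12 (0.914) for Ahr. Rora was less like them (0.628 with Maf, 0.571 with Ahr) and nearest to Atxn1 (0.946), Tex264 (0.937) and Clip1 (0.928).

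Tbx21 was nearest to Il1rl2 (0.966), Sntb2 (0.964) and Il18r1 (0.957), and Eomes, whose r rests on the 2 homeostatic groups, to Chl1 (0.987), Rab5c (0.986) and Mcemp1 (0.985). The related factors Tbx21 and Eomes correlated at 0.353 with each other. Stat4 was nearest to Tsc2 (0.959), Hic1 (0.957) and Fads1 (0.957), Bcl6 to Gpm6b (0.861), Synpo (0.857) and Sesn3 (0.813), Tox2 to Ksr1 (0.826), Hpcal1 (0.81) and Abhd4 (0.798), and Gata3 to Cldnd1 (0.801), Tmem30b (0.778) and Bcorl1 (0.776).

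In genome order (GRCm38.p6) the factors lie at chr1:51987106-52107189 (Stat4), chr2:9857078-9887953 (Gata3), chr2:163203058-163324172 (Tox2), chr8:115703253-115706894 (Maf), chr9:68653404-69388246 (Rora), chr9:118478186-118486132 (Eomes), chr11:97098007-97115331 (Tbx21), chr12:35497979-35534989 (Ahr) and chr16:23965050-23988866 (Bcl6). All are protein-coding, and the 3 factors that rose through the LN subsets lie on 3 different chromosomes.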

How the data were processed

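Total RNA of sorted cells was amplified in 2 rounds and hybridised to Affymetrix arrays, per the labels' protocols. The deposited values are probe set intensities on a linear scale (4.71 to 26750), made with RMA per the submitters' processing notes (no version given). Array medians still differ (63.7 to 81.1), levels are relative, and the number of arrays limits precision. Here log2 of the intensity was taken without a pseudocount.

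Probe sets were named through the platform annotation: 34945 had 1 gene symbol, 932 several (not used) and 9160 none. The brightest probe set on average stood for a gene, and genes with 1 group mean above the median of all values were tested. limma 3.58.1 in R 4.3.3 was fitted to 9 group means over all 23 arrays with eBayes (residual df 14) and Benjamini-Hochberg adjustment over all 12516 genes. The fit was tested on simulated data. Alternatives were scaling, the filter, arrays fitted, array weights, averaged probe sets, a replicate block and leaving out arrays. The replicate block took the array numbers of all systems in 1 fit, LP and LN included, each with a block of its own. For LP Treg against the LN subsets, another fit gave LP and LN arrays of equal number 1 shared block.

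Arrays with the same number deviated together in the homeostatic (r = 0.661, 0.58 and 0.486) and DEC groups (0.394, 0.512 and 0.385), which were read as pairs, since all 3 correlations in each exceeded 0.1. Genes beyond the 9 were named as the up to 4 called genes of each list with the smallest p, and the 3 most alike in pattern. Exceptions are Xist and single calls of a count. The 9 genes and all lists (Th1, Th2, Th17, Tfh, Ahr pathway, partner factors, Maf-linked cytokines and cell markers) were chosen with earlier results of these data known. Promoter sequences and positions are RefSeq's, and no other column of the files was left unmapped. Figures were drawn with matplotlib 3.10.9.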

Additional observations from a re-analysis of the deposited data

Results flagged for a closer look

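Tbx21 on the 4 DEC CD25- arrays had 1 array far from the others. Replicate 3 read 104 intensity units (6.69 on the log2 scale), and the others 284 to 329, so that the gap made up 0.873 of the whole range. Chance flags about 1 in 20 groups of this kind, and 9 genes were looked at. The array is the one with a median intensity of 68.5 and the steepest 3′ to 5′ signal of Gapdh. Their part in the value was not tested.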

How the results depend on the processing

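Over 1539 alternatives of the members' differences, 0 called values changed sign, 15 calls were lost and 78 were gained. The F-test called 8 members, and 8 to 9 under every alternative run. Leaving out 1 array of the groups compared changed the member count to 0 to 1 for LP Treg against LP Tconv (Tox2 or Tbx21 gained), 1 to 2 for the homeostatic pair, 2 for LN CD103+Klrg1+ against CD103-Klrg1-, 0 to 1 for LP Treg against LN CD103+Klrg1+, 0 to 2 for the LP against homeostatic difference (Bcl6 and Tox2 gained without LP Tconv replicate 1) and 0 to 1 for the LP against DEC difference. It stayed at 0 for the DEC pair, both separate LN steps, LP Treg against LN CD103+Klrg1- and the homeostatic against DEC difference, and at 3 for LP Treg against LN CD103-Klrg1-. Where this left 1 array in a group, that array was assumed to vary like the other groups. The replicate block gave 2 members for LP Treg against LP Tconv (Gata3 and Tbx21; 615 genes against 338), 4 for the homeostatic pair (480 against 220), 0 for the DEC pair (139 against 62), 1 for the first LN step (Ahr; 27 against 12) and 1 for the second (Rora; 136 against 81). It gave 3 for both steps together (453 against 263), and 5, 2 and 1 for LP Treg against LN CD103-Klrg1- (959 against 570), CD103+Klrg1- (592 against 329) and CD103+Klrg1+ (451 against 257). For the differences of differences it gave 2 (LP against homeostatic, 217 genes against 97), 0 (LP against DEC, 245 against 126) and 3 (homeostatic against DEC, 138 against 42). In LP and LN cells the labels share only a number, with residual correlations of -0.068 in LP and 0.374 to 0.72 in LN pairs. For LP Treg against the LN subsets, the block also joined LP and LN arrays of equal number. With DEC CD25- replicates 3 and 4 left out of the pooled spread, the counts were 2 for LP Treg against LP Tconv (557 genes), 4 for the homeostatic pair (435), 2 (28) and 0 (134) for the LN steps, 3 for both together (398), 5 (1082), 1 (650) and 1 (448) for LP Treg against the LN subsets, and 1 for LP against homeostatic (179) and for LP against DEC differences (162). Array weights gave 0 (221 genes), 6 (1236) and 0 (193) for the LP, homeostatic and DEC pairs, 2 (99), 1 (264) and 3 (599) in the lymph nodes, 7 (1494), 7 (1347) and 2 (648) for LP Treg against the LN subsets, 1, 0 (80) and 2 (292) for the differences of differences, and 9 (9063) for the F-test. Fitting only the arrays compared gave 0 (17 genes), 3 (741) and 0 (5) for the 3 pairs, 2 for the first LN step, 6 (1006), 5 (801) and 2 for LP Treg against the LN subsets, 0 (26) for LP against DEC and 1 for homeostatic against DEC differences. Quantile and loess scaling each gave 1 for the first LN step (Maf; 29 genes with loess) and 1 for LP Treg against LN CD103+Klrg1- (Rora), and no filter on low values gave 0 for LP Treg against LN CD103+Klrg1+. In the DEC pair, scaling turned the sign of uncalled values of Rora (0.16, quantile -0.07, loess -0.13) and Stat4. Leaving out 1 array moved the DEC pair's count of genes from 62 to between 19 and 330. Of 1369 alternatives of the list genes' calls, 250 lost the call. The cause of these changes was not tested.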
